A study of Mus musculus with 16 samples.

Results

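The proteasome genes of the medial prefrontal cortex (mPFC) were followed across 16 mice. The set comprised every known gene of the deposited table whose symbol starts with Psma to Psmg and a number, the naming scheme of the subunits, activators and assembly factors of the proteasome. This rule found 50 genes among the 19069 known genes and 26625 entries of the table, and it used no measured value. A single match, Psmc3ip, encodes a cofactor of meiotic recombination and not a proteasome protein, which left 49 proteasome genes, and 48 of the 50 had enough reads to be tested. The untested genes were Psma8, the alpha subunit of male germ cells, with 1 to 17 reads per mouse, and Psmb11, the catalytic subunit of the thymus, with 0 or 1.

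The mice were 8 to 10 weeks old and belonged to 4 groups that differed in the virus injected into the mPFC and in the treatment. The Ctrl + Saline group (3 mice) and the Ctrl + Morphine group (4 mice) had received a control virus with a non-targeting hairpin, and the Kdm7a-shRNA + Saline group (5 mice) and the Kdm7a-shRNA + Morphine group (4 mice) a virus carrying a short hairpin RNA against Kdm7a, a histone H3 lysine demethylase. All 16 mice had an AAV vector that also expressed EGFP, and the hairpin was driven by the U6 promoter, which is not restricted to a cell type. Morphine was given at 10 mg/kg for place conditioning, the other mice received saline instead, and the tissue was taken on day 7 of withdrawal. Each sample is called a mouse, although the sources used here do not say whether a sample held 1 animal or a pool, and the p-values measure only the spread between these samples.

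The proteasome degrades proteins tagged with ubiquitin. Its 20S core is a barrel of alpha rings around beta rings, in which Psmb5, Psmb6 and Psmb7 carry the proteolytic sites. The 19S particle caps the core, recognizes ubiquitin chains through receptors such as Psmd4, removes them and feeds the unfolded protein inward by a ring of Psmc ATPases. In the immunoproteasome, which is induced by interferon and is prominent in immune cells including microglia, Psmb8, Psmb9 and Psmb10 replace Psmb5, Psmb6 and Psmb7, and the PA28 cap of Psme1 and Psme2 favours peptides for antigen presentation.

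Between 6596991 and 12418112 reads per mouse were counted. Levels are given as normalized CPM, counts scaled to the depth of the tested genes and corrected by edgeR's TMM factors, which lay between 1.02 and 1.07 in the Ctrl groups and between 0.913 and 0.991 in the Kdm7a-shRNA groups. Kdm7a was at 9.78, 9.08 and 9.40 in Ctrl + Saline mice, 7.79, 6.19, 8.89 and 8.02 in Ctrl + Morphine mice, 5.74, 4.95, 6.04, 6.07 and 4.92 in Kdm7a-shRNA + Saline mice, and 6.28, 4.44, 3.01 and 6.04 in Kdm7a-shRNA + Morphine mice. The saline groups did not overlap, with all 5 knockdown mice lower (log2 fold change -0.76, SE 0.20, adjusted p = 0.015 by edgeR's quasi-likelihood test), whereas under morphine the groups overlapped by 1 Ctrl mouse (-0.67, SE 0.21, adjusted p = 0.051). Without Ctrl + Saline mouse 3 the saline comparison gave an adjusted p of 0.053. Neuron markers were plentiful in all mice, with a summed level of 1719 to 3054 normalized CPM over 6 genes, and the summed markers of choroid plexus and T cells reached at most 7.70 and 6.90 normalized CPM. The 10 microglia markers summed to 1013 to 1446 normalized CPM in the Ctrl + Saline group, 608 to 1280 in the Ctrl + Morphine group, 2039 to 6039 in the Kdm7a-shRNA + Saline group and 1312 to 5890 in the Kdm7a-shRNA + Morphine group. Of these 10, 9 passed the test as higher in the Kdm7a-shRNA group under saline and 7 under morphine. Under saline 2 of 5 astrocyte markers (list median 0.77 on the log2 scale) and 3 of 5 endothelium markers (0.68) were also higher. Both erythroid markers (-1.30) and 1 of 6 neuron markers (-0.20) were lower, and none of 5 oligodendrocyte markers passed. Under morphine 1 astrocyte and 1 endothelium marker were higher. In bulk tissue, more cells of a type and more RNA per cell cannot be told apart.

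Few proteasome genes changed in any comparison. Among the 48 tested, which include Psmc3ip, 4 passed an adjusted p of 0.05 between the viruses under saline, which is 8.33% of them, while 20.3% of all 18826 tested genes passed (edgeR's quasi-likelihood test). Between the viruses under morphine 1 of 48 passed (2.08%) against 9.26% of all tested genes. Higher levels with the Kdm7a-shRNA virus made up 9.69% of all tested genes under saline and 3.93% under morphine, and lower levels 10.6% and 5.34%. All members are known genes, and of the 14162 known genes tested 11.5% were higher and 4.58% lower under saline, and 4.51% and 1.91% under morphine. At an unadjusted p under 0.05, 8 of the 48 genes (16.7%) were counted in each of these comparisons, beside 34.7% of all genes under saline and 25.5% under morphine. No proteasome gene passed between Ctrl + Saline and Ctrl + Morphine, where no gene of the table did, or between Kdm7a-shRNA + Saline and Kdm7a-shRNA + Morphine, where 0.00531% of all genes did. Likewise none passed for the interaction, which sets the effect of the virus in morphine mice against that in saline mice (0.085% of all genes). At an unadjusted p under 0.05 these comparisons without calls held 4, 3 and 4 of the 48 genes, against 11.7%, 7.02% and 10.7% of all genes, and DESeq2's Wald test called 1, 0 and 1. The median log2 fold change of the 48 genes was -0.0013 between the viruses under saline and 0.0016 under morphine, beside 0.015 and -0.0045 for all tested genes and 0.098 and 0.042 for the known genes.

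**Figure D1:**
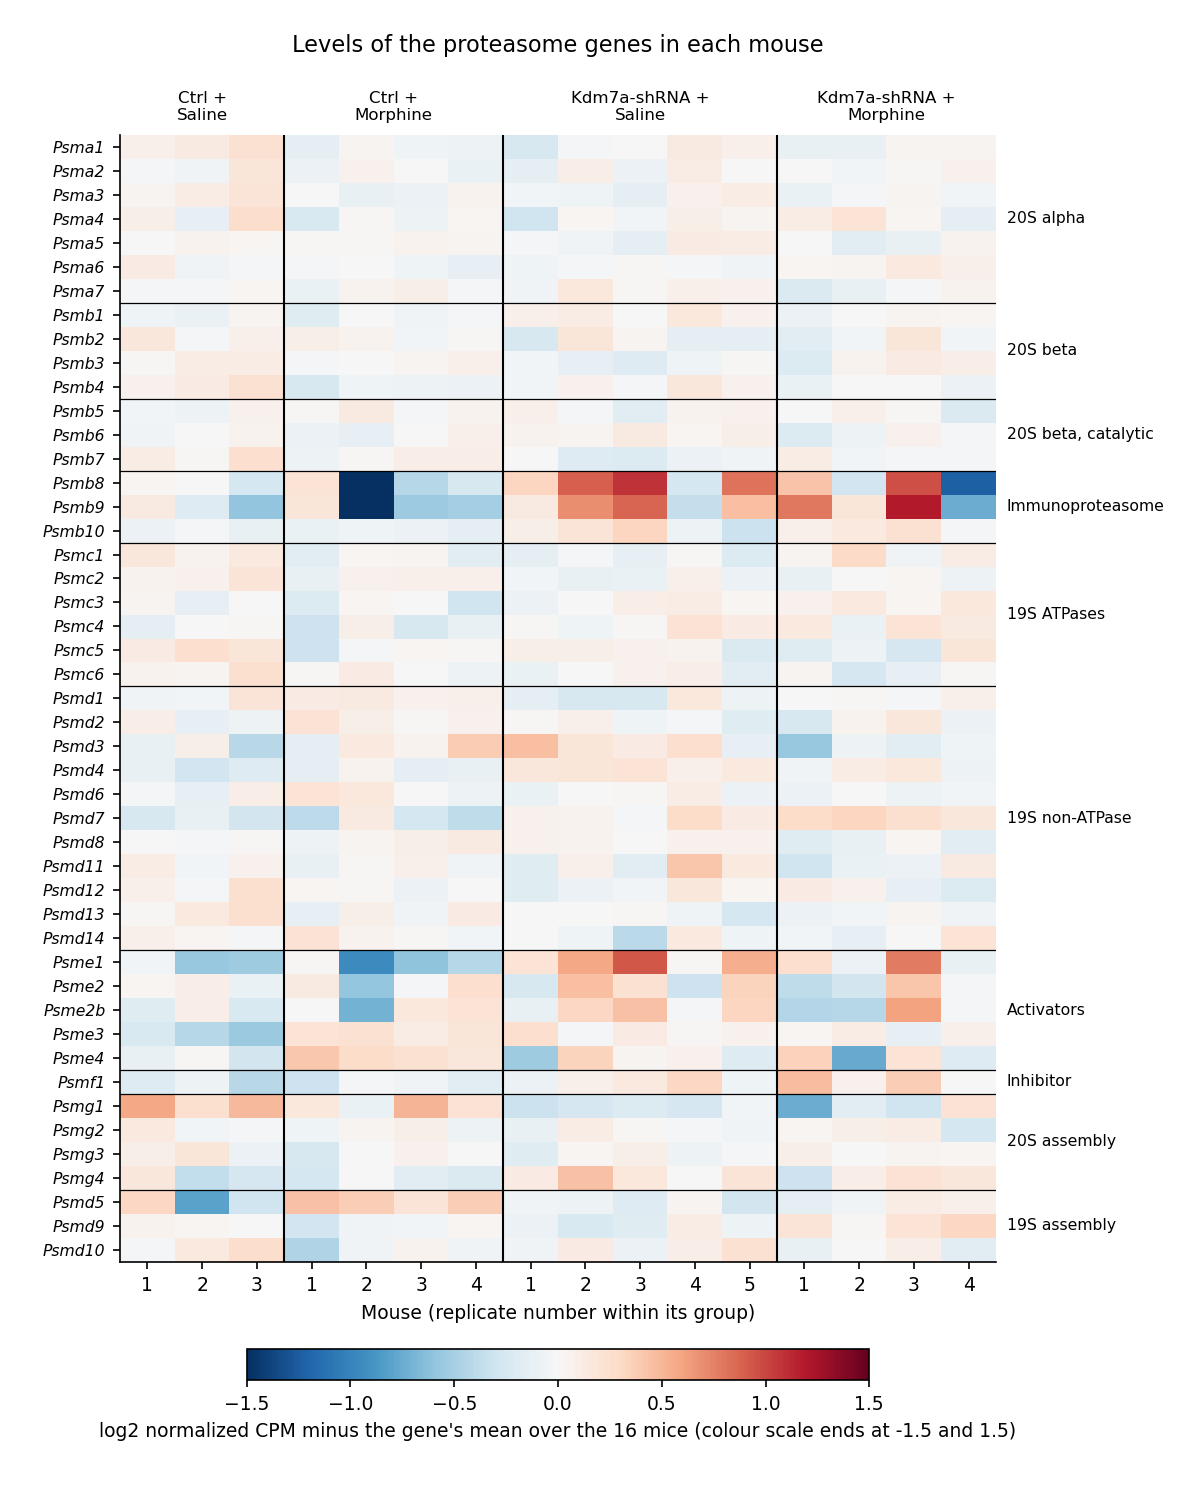
Level of each of the 47 tested proteasome genes (rows, grouped by role) in each of the 16 mice (columns, grouped by virus and treatment), as log2 normalized CPM minus the gene's mean over all mice, with red above and blue below the mean. Most rows are pale, and the strongest colours lie in Psmb8, Psmb9 and Psme1, with Ctrl + Morphine mouse 2 lowest and Kdm7a-shRNA + Saline mouse 3 and Kdm7a-shRNA + Morphine mouse 3 among the highest.

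The constitutive subunits of the core and of the cap formed the bulk of the transcripts and differed little. Summed over the 14 constitutive 20S genes that were tested and Psma8, the level in normalized CPM (mean ± SD) was 3742 ± 213 in 3 Ctrl + Saline mice, 3524 ± 103 in 4 Ctrl + Morphine mice, 3621 ± 165 in 5 Kdm7a-shRNA + Saline mice and 3575 ± 87.7 in 4 Kdm7a-shRNA + Morphine mice. The 17 constitutive 19S genes summed to 4550 ± 89.8, 4159 ± 249, 4273 ± 219 and 4148 ± 256 normalized CPM in the same order. The ranges of all 4 groups overlapped for the 20S sum, and for the 19S sum the lowest Ctrl + Saline mouse was above every Ctrl + Morphine mouse. Across the 31 tested constitutive genes the log2 fold changes between the viruses ran from -0.23 to 0.36 under saline and from -0.32 to 0.46 under morphine, and 1 gene passed in each (3.23%).

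Within the particle the transcripts were far from equal. Relative to the length of the longest coding transcript, Psmc5, an ATPase of the 19S base, was the most abundant with 1457 CPM per kb on average over the 16 mice, followed by Psma4 with 424 and Psma7 with 333, both alpha ring subunits, Psma3 with 254 and the activator Psme1 with 246. At the lower end of the constitutive subunits were Psmd11 with 13.8, Psmd1 with 14.9 and Psmd3 with 18.5 CPM per kb, all of the 19S particle. Reads were selected as full-length, so division by length may understate longer transcripts. Without that division Psmc5 was again first with 1918 normalized CPM, followed by Psma3 with 723, Psma4 with 494, Psma2 with 479 and Psmb1 with 415. The proteasome inhibitor Psmf1 was at 6.03 CPM per kb and the large nuclear activator Psme4 at 1.31. The proteasome genes also had a lower median variation between mice of a group than all tested genes, without regard to level. The biological coefficient of variation estimated by edgeR had a median of 0.116 over the 48 genes and 0.200 over all tested genes. It lay below the trend for genes of the same level in 44 of the 48. The share of all tested genes below the trend was not computed, so this count cannot be set against other genes.

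The alpha ring and the structural beta subunits, which build the wall of the core and gate its entry, held no gene that passed in any comparison. Their log2 fold changes between the viruses lay between -0.16 and 0.13 under saline and between -0.09 and 0.13 under morphine. Of the 6 Psmc ATPases none passed either, with differences of -0.22 to 0.10 under saline and -0.09 to 0.24 under morphine. Between Ctrl + Saline and Ctrl + Morphine all 6 ATPases were on the lower side in the morphine mice (-0.25 to -0.08), and Psmc5 and Psmc1 did not overlap between these groups. This side was not particular to the ATPases, since 32 of the 48 tested genes were lower there and 16 higher. Of the 48 genes, 4 lay wholly below in this comparison and 2 wholly above, beside 5.38% and 7.04% of all genes.

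**Figure D2:**
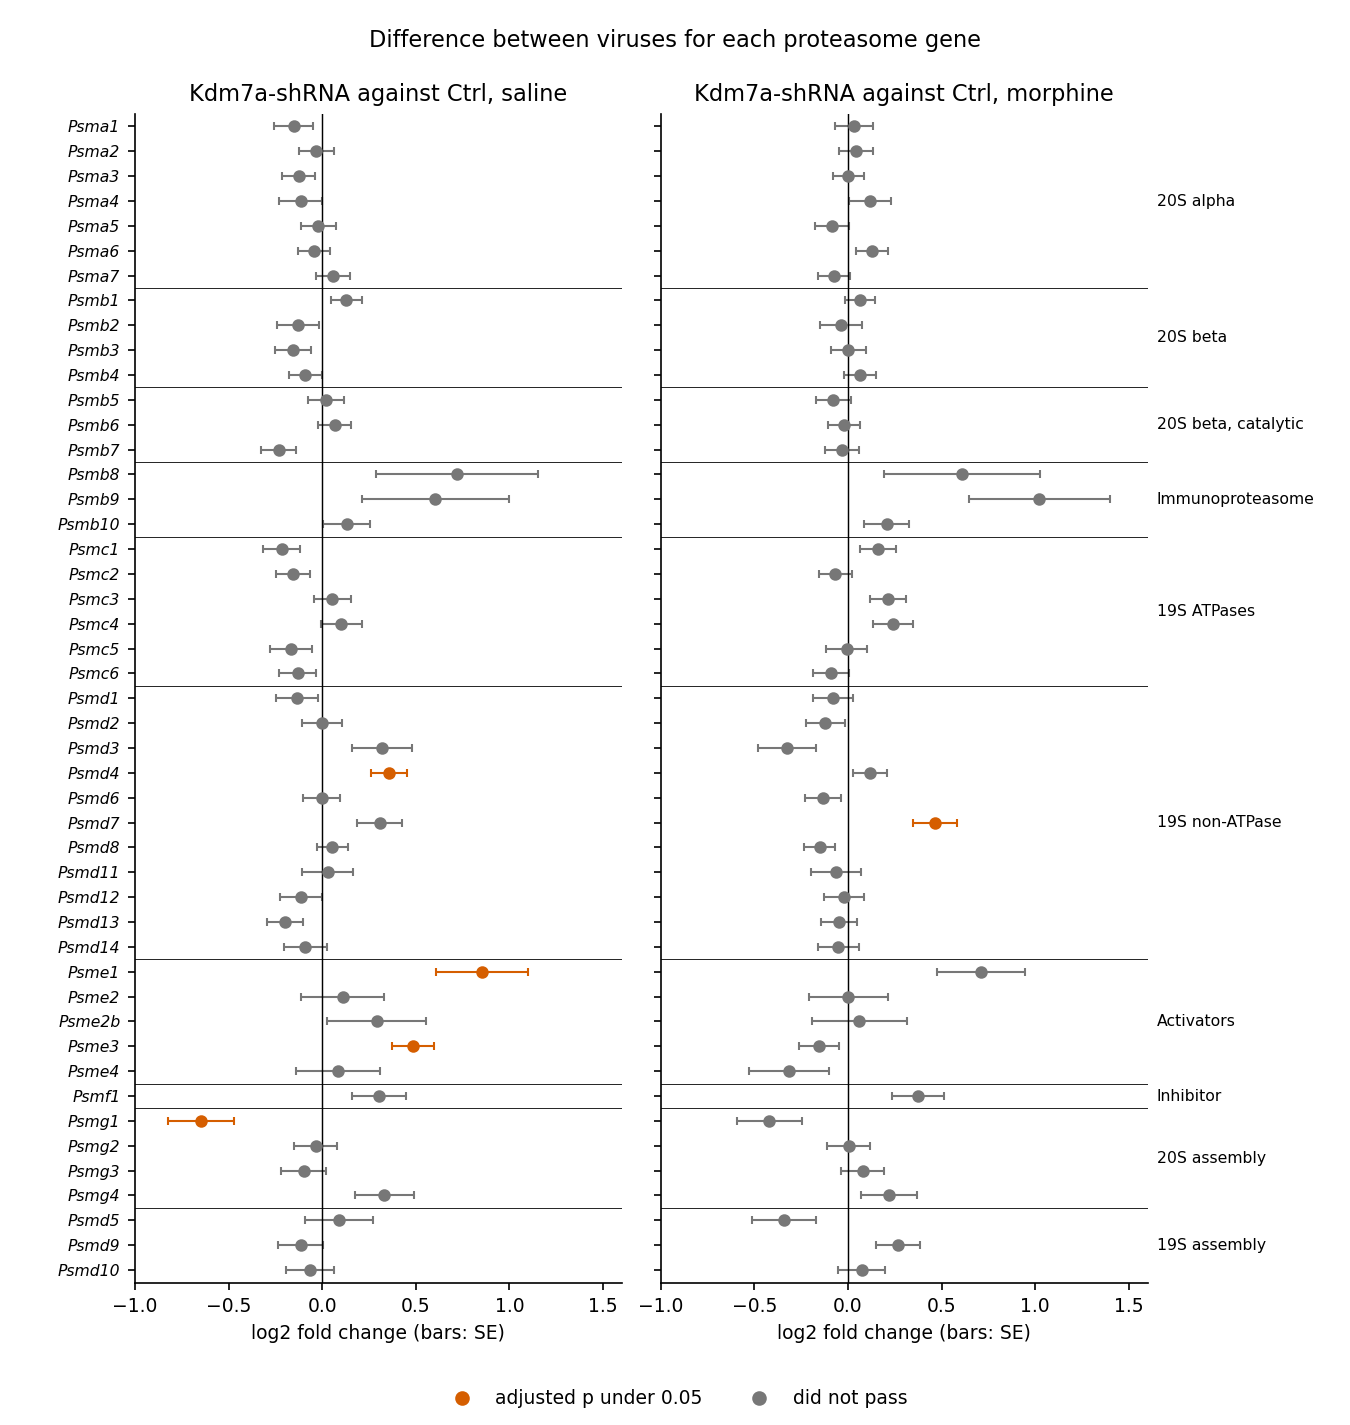
log2 fold change of Kdm7a-shRNA against Ctrl mice under saline (left) and under morphine (right) for each of the 47 tested proteasome genes, grouped by role, with bars for the standard error and orange for an adjusted p under 0.05. Most constitutive subunits lie close to 0, while Psmb8, Psmb9 and Psme1 lie to the right with wide bars in both panels.

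Among the catalytic subunits of the constitutive core, the chymotrypsin-like Psmb5 was at 125, 122 and 135 in Ctrl + Saline mice, 131, 141, 127 and 134 in Ctrl + Morphine mice, 135, 126, 116, 134 and 134 in Kdm7a-shRNA + Saline mice, and 128, 136, 131 and 111 in Kdm7a-shRNA + Morphine mice. The groups overlapped throughout, and the difference between the viruses was 0.02 on the log2 scale (SE 0.096) under saline and -0.08 (SE 0.093) under morphine, with adjusted p of 0.91 and 0.65. Psmb6, the caspase-like subunit, ranged from 144 to 182 normalized CPM over the 16 mice and differed between the viruses by 0.07 (SE 0.090) and -0.02 (SE 0.087). Psmb7, the trypsin-like subunit, was at 152, 142 and 168 in Ctrl + Saline mice, 134, 143, 151 and 151 in Ctrl + Morphine mice, 141, 124, 123, 133 and 136 in Kdm7a-shRNA + Saline mice, and 152, 137, 139 and 138 in Kdm7a-shRNA + Morphine mice. Its Kdm7a-shRNA + Saline mice were all below the Ctrl + Saline mice, a difference of -0.23 (SE 0.093) that did not pass (adjusted p = 0.085), and the morphine groups overlapped (-0.03, SE 0.091, adjusted p = 0.87). With library size alone as scaling Psmb7 passed (-0.37, adjusted p = 0.017), and it also passed by DESeq2 (-0.24, adjusted p = 0.047), with at least 10 counts in every mouse (-0.28, adjusted p = 0.046) and among known genes alone (-0.31, adjusted p = 0.040).

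The immunoproteasome subunits Psmb8 and Psmb9 had the widest spread between mice of all 48 tested genes. Psmb8, which takes the place of Psmb5, was at 32.9, 32.1 and 27.0 in Ctrl + Saline mice, 37.4, 7.90, 24.1 and 27.5 in Ctrl + Morphine mice, 40.4, 60.1, 68.5, 27.0 and 56.9 in Kdm7a-shRNA + Saline mice, and 43.7, 26.5, 63.4 and 13.8 in Kdm7a-shRNA + Morphine mice. Ctrl + Morphine mouse 2 had the lowest value and Kdm7a-shRNA + Saline mouse 3 the highest, 8.67 times as much, and within the Ctrl + Morphine group alone the values spanned 4.74-fold. Mean levels were higher with the Kdm7a-shRNA virus, but the groups overlapped and the test was not passed under saline (0.72, SE 0.43, adjusted p = 0.25) or under morphine (0.61, SE 0.42, adjusted p = 0.39).

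Psmb9, which replaces Psmb6, was at 28.9, 23.0 and 17.5 in Ctrl + Saline mice, 29.8, 8.22, 18.0 and 18.5 in Ctrl + Morphine mice, 28.8, 42.7, 48.1, 20.5 and 36.0 in Kdm7a-shRNA + Saline mice, and 45.5, 29.9, 60.1 and 15.7 in Kdm7a-shRNA + Morphine mice. Here too Ctrl + Morphine mouse 2 was lowest, whereas Kdm7a-shRNA + Morphine mouse 3 was highest. The differences between the viruses were 0.60 (SE 0.39, adjusted p = 0.29) under saline and 1.02 (SE 0.38, adjusted p = 0.093) under morphine. Under morphine Psmb9 passed by DESeq2 (1.04, adjusted p = 0.047) and without Kdm7a-shRNA + Morphine mouse 4 (1.28, adjusted p = 0.023). Without Kdm7a-shRNA + Morphine mouse 3 the difference was 0.70 (adjusted p = 0.32).

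Psmb10, which replaces Psmb7, was at 58.9, 61.8 and 58.0 in Ctrl + Saline mice, 58.4, 59.9, 59.2 and 56.6 in Ctrl + Morphine mice, 66.9, 71.8, 78.1, 59.5 and 50.3 in Kdm7a-shRNA + Saline mice, and 66.0, 69.2, 73.2 and 61.6 in Kdm7a-shRNA + Morphine mice. The 4 Kdm7a-shRNA + Morphine mice were all above the Ctrl + Morphine mice, as were 5 of the 48 tested genes of the set and 6.37% of all genes, but the difference was small (0.21, SE 0.12, adjusted p = 0.30), and the saline groups overlapped (0.13, SE 0.13, adjusted p = 0.49). Its values spanned 1.55-fold over all mice, against 8.67-fold for Psmb8 and 7.31-fold for Psmb9.

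**Figure D3:**
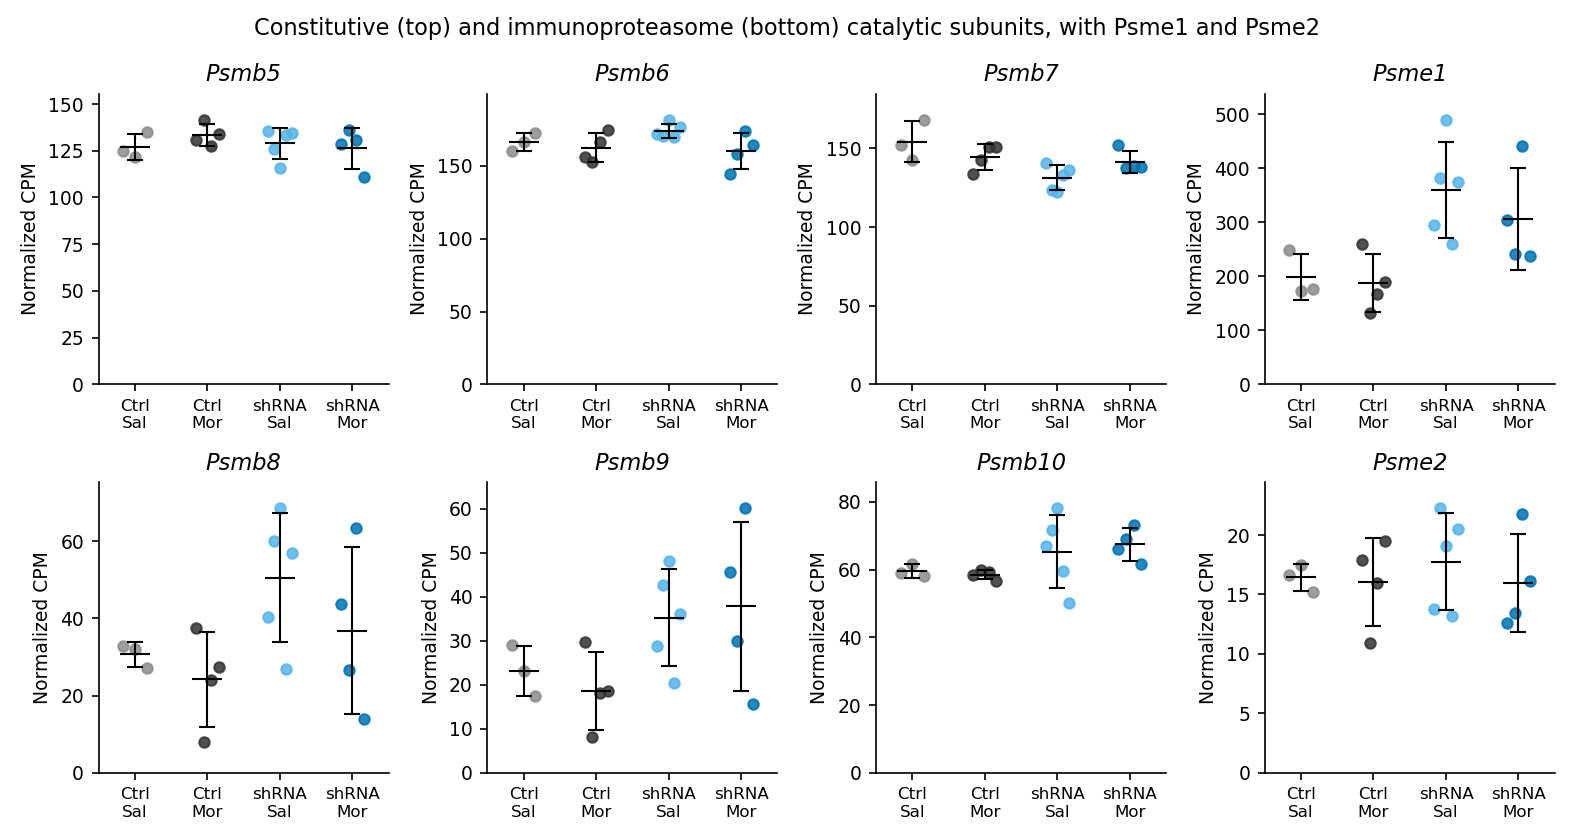
Normalized CPM of the constitutive catalytic subunits Psmb5, Psmb6 and Psmb7 (top), of the immunoproteasome subunits Psmb8, Psmb9 and Psmb10 (bottom), and of the PA28 subunits Psme1 (top right) and Psme2 (bottom right), with 1 point per mouse and the group mean with its SD, by virus (Ctrl or Kdm7a-shRNA) and treatment (Sal for saline, Mor for morphine). The constitutive subunits lie in narrow bands, while Psmb8, Psmb9 and Psme1 spread widely within each Kdm7a-shRNA group.

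Per kb of transcript, the 3 immunoproteasome subunits made up 15.5%, 15.2% and 12.6% of the summed catalytic CPM per kb in the Ctrl + Saline mice. In the Ctrl + Morphine mice they made up 16.4%, 10.7%, 13.2% and 12.9%. The shares were 16.6%, 21.1%, 22.9%, 13.9% and 17.0% in the Kdm7a-shRNA + Saline mice and 19.6%, 16.3%, 22.4% and 13.0% in the Kdm7a-shRNA + Morphine mice. The shares of the groups overlapped, and the constitutive subunits remained the larger part in every mouse. The sum of the constitutive catalytic genes was 448 to 511 CPM per kb in all 16 mice, so the range of the share, 10.7% to 22.9%, came mostly with the range of the immunoproteasome sum, 56.6 to 139 CPM per kb. Reads were selected as full-length, so division by length may understate the share of the longer immunoproteasome transcripts. Psmb8, Psmb9 and Psmb10 have 1628, 1352 and 1311 nucleotides, and Psmb5, Psmb6 and Psmb7 have 899, 798 and 1160. Without that division the immunoproteasome sum was 76.0 to 197 normalized CPM.

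Psmb8 and Psmb9 lie on either side of Tap1 in the class II region of the major histocompatibility complex on chromosome 17 (GRCm38, Psmb8 at 34197721 to 34201454 on the plus strand and Psmb9 at 34181987 to 34187764 on the minus strand). Psmb10 is on chromosome 8 (105935735 to 105938444). Psme1 and Psme2 are neighbours on chromosome 14 (55578123 to 55581529 and 55587441 to 55591113). The annotated Psmb9 overlaps Tap1 and Psme1 overlaps Emc9, each on the opposite strand, and whether counting used the strand is not given in the sources used here.

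After the wide spread of Psmb8 had been seen, its level was related to that of 7 members and to the summed microglia markers across the 16 mice, on log2 values after subtraction of each group's mean, with permutation of mice within groups (100000 resamples, two-sided, smallest possible p 1e-05) and adjustment over the 8 relations. Psmb9 followed Psmb8 closely (Pearson's r 0.977, permutation p = 1e-05, adjusted 8e-05, Spearman's rho 0.953, permutation p = 1e-05, adjusted 4e-05). Psme1 did so too (r 0.858, permutation p = 0.00035, adjusted 0.00093, rho 0.924, permutation p = 1e-05, adjusted 4e-05), and Psme2 less closely (r 0.693, permutation p = 0.020, adjusted 0.041, rho 0.715, permutation p = 0.012, adjusted 0.025). For Psmb10 the relation did not pass (r 0.274, permutation p = 0.26, adjusted 0.42, rho 0.288, permutation p = 0.31, adjusted 0.41). Neither did those for the constitutive counterparts Psmb5 (r -0.064, permutation p = 0.85, adjusted 0.85, rho -0.326, permutation p = 0.29, adjusted 0.41), Psmb6 (r 0.257, permutation p = 0.48, adjusted 0.64, rho 0.235, permutation p = 0.47, adjusted 0.54) and Psmb7 (r -0.116, permutation p = 0.66, adjusted 0.76, rho -0.129, permutation p = 0.64, adjusted 0.64). The microglia sum also followed Psmb8 (r 0.88, permutation p = 0.00011, adjusted 0.00044, rho 0.835, permutation p = 0.00026, adjusted 0.00069). Without Ctrl + Morphine mouse 2 and Kdm7a-shRNA + Morphine mouse 4, the mice farthest from the median of Psmb8, r was 0.96 for Psmb9, 0.882 for Psme1, 0.753 for Psme2 and 0.86 for the microglia sum. Within the 7 Ctrl mice alone r was 0.951, 0.811, 0.939 and 0.865 for these measures, and within the 9 Kdm7a-shRNA mice 0.995, 0.892, 0.547 and 0.938. The part of microglia in the levels of Psmb8, Psmb9 and Psme1 was not tested. Nor were marker sums of other cell types related to Psmb8, so whether the relation is particular to microglia was not tested. The astrocyte marker Gfap was lowest in Ctrl + Morphine mouse 2 (65.2) and highest in Kdm7a-shRNA + Saline mouse 3 (581), as was Psmb8. Another astrocyte marker, Gja1, was at 68.3 and 94.7 in these mice, with its extremes in other mice. The neuron marker Syt1 was at 1284 and 684 in them.

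**Figure D4:**
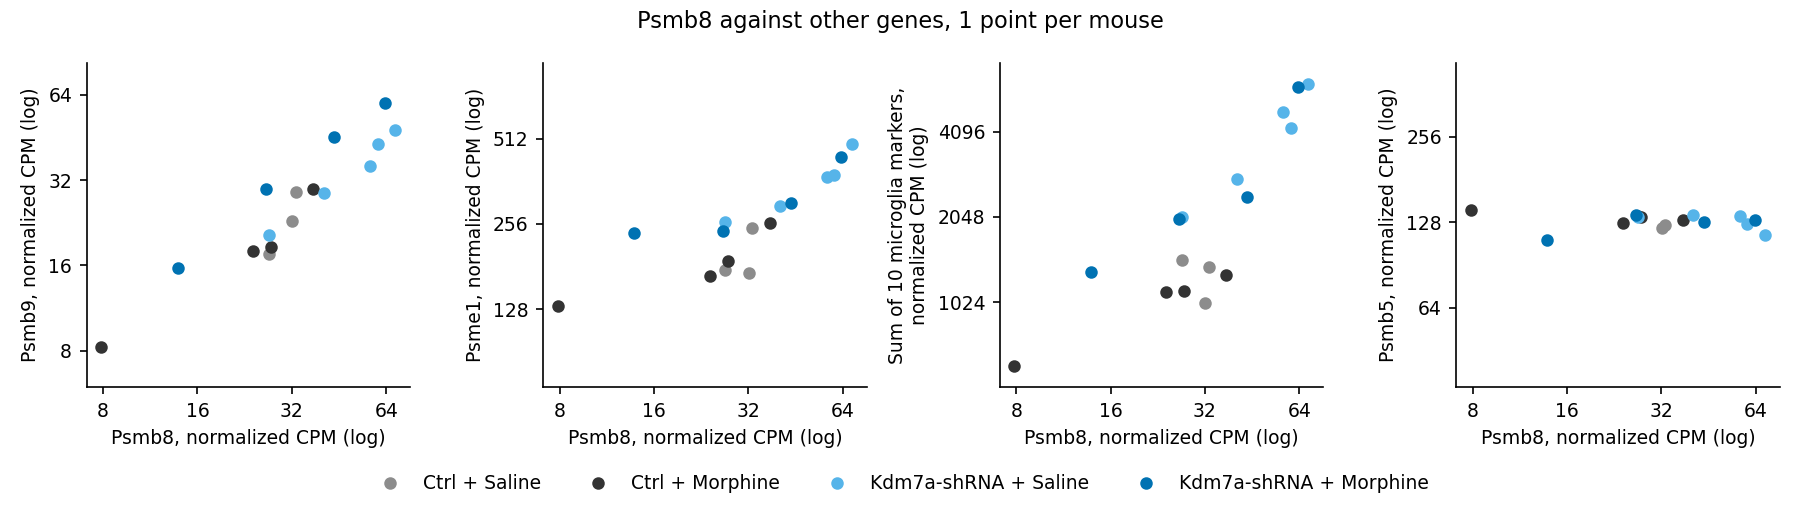
Psmb8 (horizontal axis) against Psmb9, Psme1, the sum of the 10 microglia markers and Psmb5 (vertical axes), in normalized CPM on log axes that span the same number of doublings in each panel, with 1 point per mouse coloured by group. Psmb9, Psme1 and the microglia sum climb with Psmb8 from Ctrl + Morphine mouse 2 at the lower left, while Psmb5 stays level over the whole range of Psmb8.

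The promoters of these genes are shown because Psmb8, Psmb9 and Psme1 varied together and Psmb10 did not. The sequences are RefSeq's for GRCm38.p6, from 250 bases before to 50 bases after the start annotated by RefSeq, written 5′ to 3′ on the strand of the gene. For Psmb8, Psmb9 and Psme1 the whole window lies inside the gene as bounded by the GENCODE coordinates given above. These 3 windows therefore do not hold the sequence before the GENCODE start. Capitals mark matches to the core of the interferon-stimulated response element (GAAA, any 2 bases, GAAA) and to TTCNNNGAA, the core of the gamma-activated site, searched on both strands, and no match overlapped another.
Psmb8 (chr17:34197945-34198244, plus strand): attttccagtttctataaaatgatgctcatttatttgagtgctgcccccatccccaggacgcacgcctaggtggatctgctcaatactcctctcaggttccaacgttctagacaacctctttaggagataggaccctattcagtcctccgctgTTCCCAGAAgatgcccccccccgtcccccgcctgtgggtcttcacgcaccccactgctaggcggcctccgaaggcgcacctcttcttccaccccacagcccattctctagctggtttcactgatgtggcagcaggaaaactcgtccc
Psmb9 (chr17:34187281-34187580, minus strand): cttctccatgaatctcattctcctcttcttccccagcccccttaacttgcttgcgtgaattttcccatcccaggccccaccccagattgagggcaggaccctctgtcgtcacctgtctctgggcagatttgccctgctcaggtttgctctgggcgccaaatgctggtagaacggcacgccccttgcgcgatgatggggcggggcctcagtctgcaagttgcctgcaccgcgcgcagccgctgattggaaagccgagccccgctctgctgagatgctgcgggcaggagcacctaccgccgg
Psme1 (chr14:55578244-55578543, plus strand): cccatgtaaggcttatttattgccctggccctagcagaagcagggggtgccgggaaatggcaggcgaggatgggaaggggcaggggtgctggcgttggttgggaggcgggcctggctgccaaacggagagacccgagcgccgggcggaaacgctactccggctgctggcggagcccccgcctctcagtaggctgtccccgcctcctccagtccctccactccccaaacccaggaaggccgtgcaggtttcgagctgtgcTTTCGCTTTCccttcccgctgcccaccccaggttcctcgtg
Psmb10 (chr8:105938343-105938642, minus strand): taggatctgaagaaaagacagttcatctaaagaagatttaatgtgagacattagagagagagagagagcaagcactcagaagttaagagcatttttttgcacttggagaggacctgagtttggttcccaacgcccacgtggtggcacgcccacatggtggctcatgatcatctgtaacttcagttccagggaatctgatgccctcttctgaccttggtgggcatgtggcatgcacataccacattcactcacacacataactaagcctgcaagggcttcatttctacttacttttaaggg
The window of Psmb8 held 1 match to TTCNNNGAA, and the windows of Psmb9 and Psmb10 held neither core. That of Psme1 held 1 match to the interferon core on the opposite strand, just after its RefSeq start. The window of Psme2, which also varied with Psmb8 but less closely, is not shown and held neither core. Of the 42 genes of the set with a promoter entry, which include Psmc3ip, 5 (11.9%) matched the interferon core, namely Psmb3, Psmd4, Psmd9, Psme1 and Psmg4, beside 3.99% of all 27025 genes, and 3 (7.14%) matched TTCNNNGAA, beside 9.55%. The core of the antioxidant response element, TGACNNNGC, through which the factor NRF1 acts on proteasome genes, was found in 6 of the 42 (14.3%), including Psmb5 and Psmb6, and in 14.0% of all genes. CCAAT was found in 15 of the 42 (35.7%) and in 41.1% of all genes. These motifs were searched with the expression values already known, and a match of letters does not show binding.

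The activators open the core without ubiquitin. Psme1, the alpha subunit of PA28, was at 248, 172 and 177 in Ctrl + Saline mice, 259, 132, 168 and 190.0 in Ctrl + Morphine mice, 296, 382, 489, 259 and 374 in Kdm7a-shRNA + Saline mice, and 304, 242, 441 and 238 in Kdm7a-shRNA + Morphine mice. All 5 Kdm7a-shRNA + Saline mice were above the 3 Ctrl + Saline mice, a rise of 0.85 on the log2 scale (SE 0.25, fold 1.81, adjusted p = 0.022 by edgeR's quasi-likelihood test). It is the largest of the changes that passed. Under morphine the difference was 0.71 (SE 0.23, adjusted p = 0.062), with 1 Ctrl + Morphine mouse above 2 Kdm7a-shRNA mice. The interaction did not pass (-0.14, SE 0.33, adjusted p = 0.93), and its SE leaves room for a sizeable difference between treatments. The call under saline was lost without Ctrl + Saline mouse 2 (0.76, adjusted p = 0.094), without Ctrl + Saline mouse 3 (0.75, adjusted p = 0.11) and without Kdm7a-shRNA + Saline mouse 3 (0.72, adjusted p = 0.052). Under morphine it passed by DESeq2 (adjusted p = 0.031), without Ctrl + Morphine mouse 1 (adjusted p = 0.037) and without Kdm7a-shRNA + Morphine mouse 4 (adjusted p = 0.036).

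Psme2, the beta subunit that assembles with Psme1, was at 10.9 to 22.2 normalized CPM and did not pass (0.11, SE 0.22, under saline and 0.0011, SE 0.21, under morphine). Per kb of transcript Psme2 averaged 17.3 CPM and Psme1 246. Psme2b, a copy of Psme2 on chromosome 11, had 5.35 CPM per kb, and reads of these similar sequences may have been divided between them in counting, so both values are uncertain.

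Psme3, the PA28 gamma subunit of the nucleus, was lowest in the Ctrl + Saline mice. It was at 33.0, 29.0 and 26.4 in Ctrl + Saline mice, 44.6, 45.7, 41.9 and 44.0 in Ctrl + Morphine mice, 46.2, 38.0, 42.2, 39.3 and 40.5 in Kdm7a-shRNA + Saline mice, and 39.5, 41.8, 35.8 and 40.9 in Kdm7a-shRNA + Morphine mice. The 3 Ctrl + Saline mice were below all other 13 mice. Ube2d3, a ubiquitin-conjugating enzyme outside the set, shared this order. It was at 126.09, 93.5 and 71.4 in Ctrl + Saline mice and at 126.98 or more in the others. Between the viruses Psme3 rose under saline by 0.48 (SE 0.11, fold 1.40, adjusted p = 0.0070), and under morphine the Kdm7a-shRNA mice were all below the Ctrl mice, without passing (-0.16, SE 0.11, adjusted p = 0.38). Between Ctrl + Saline and Ctrl + Morphine the difference was 0.58 (SE 0.12, unadjusted p = 1.1e-04 by edgeR's quasi-likelihood test), which after adjustment over all genes was 0.10, and the interaction was -0.64 (SE 0.15, adjusted p = 0.10). DESeq2 called both (adjusted p = 0.0017 and 0.0076), and so did edgeR without Ctrl + Saline mouse 1 (adjusted p = 0.024 and 0.048). Without Ctrl + Saline mouse 3 the adjusted p of the saline comparison was 0.067. Without Ctrl + Saline mouse 3 the difference between Ctrl + Saline and Ctrl + Morphine was 0.49 (adjusted p = 0.49) and the interaction -0.54 (adjusted p = 0.36). Only 1 of 7 and 1 of 16 such fits without a single mouse passed. For the 19S subunit Psmd3 the difference also had opposite signs under saline and morphine, with an interaction of -0.644 that did not pass and overlapping groups. Its means were 35.7 in Ctrl + Saline, 42.7 in Ctrl + Morphine, 44.6 in Kdm7a-shRNA + Saline and 34.1 in Kdm7a-shRNA + Morphine mice. The comparisons that include saline Ctrl mice all use the same 3 samples. In these 3 the erythroid markers Hba-a1 and Hbb-bs were also higher, with a sum of 412 to 880 normalized CPM against 221 to 392 in Ctrl + Morphine, 219 to 327 in Kdm7a-shRNA + Saline and 185 to 659 in Kdm7a-shRNA + Morphine mice. Their part in the level of Psme3 was not tested.

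Psme4 (PA200) spanned 4.92 to 11.0 normalized CPM with overlapping groups between the viruses. Psmf1 (PI31), which inhibits the core in vitro, was at 18.3, 22.3, 21.8 and 20.1 in Ctrl + Morphine mice, and 31.3, 23.6, 29.2 and 22.7 in Kdm7a-shRNA + Morphine mice. These morphine groups did not overlap, but the difference did not pass (0.37, SE 0.14, adjusted p = 0.099), and under saline it was 0.30 (SE 0.15, adjusted p = 0.15).

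In the 19S particle, the ubiquitin receptor Psmd4 rose with the Kdm7a-shRNA virus under saline and the lid subunit Psmd7 under morphine. Psmd4 (Rpn10) was at 123, 109 and 116 in Ctrl + Saline mice, 121, 137, 121 and 123 in Ctrl + Morphine mice, 149.7, 149.8, 153, 139 and 147 in Kdm7a-shRNA + Saline mice, and 127, 143, 149 and 126 in Kdm7a-shRNA + Morphine mice. The saline groups did not overlap (0.36, SE 0.095, fold 1.28, adjusted p = 0.015), and the morphine groups did (0.12, SE 0.091, adjusted p = 0.45). Its interaction was -0.24 (SE 0.13, adjusted p = 0.54). The call was lost with library size alone (0.22, adjusted p = 0.081), among the known genes alone (0.28, adjusted p = 0.051, an alternative chosen after seeing the data), and without Ctrl + Saline mouse 2 (0.32, adjusted p = 0.068) or mouse 3 (0.33, adjusted p = 0.070).

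Psmd7 (Rpn8), which pairs with the deubiquitinase Psmd14 in the lid, was at 68.9, 75.1 and 67.2 in Ctrl + Saline mice, 62.0, 88.9, 67.7 and 62.1 in Ctrl + Morphine mice, 84.8, 84.2, 79.9, 97.9 and 88.6 in Kdm7a-shRNA + Saline mice, and 98.4, 102, 96.0 and 91.2 in Kdm7a-shRNA + Morphine mice. In both treatments the Kdm7a-shRNA mice were all above the Ctrl mice, among which Ctrl + Morphine mouse 2 was the highest. The difference passed under morphine (0.46, SE 0.12, fold 1.38, adjusted p = 0.021) and not under saline (0.31, SE 0.12, adjusted p = 0.083), and the interaction was 0.16 (SE 0.17, adjusted p = 0.80). Under morphine the call was lost with library size alone (0.36, adjusted p = 0.059), in a fit of only the groups compared (0.46, adjusted p = 0.061), and without Ctrl + Morphine mouse 1 (adjusted p = 0.064), mouse 3 (0.060) or mouse 4 (0.079) or Kdm7a-shRNA + Morphine mouse 3 (0.053). Psmd14 itself differed by -0.09 (SE 0.11) under saline and -0.05 (SE 0.11) under morphine.

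**Figure D5:**
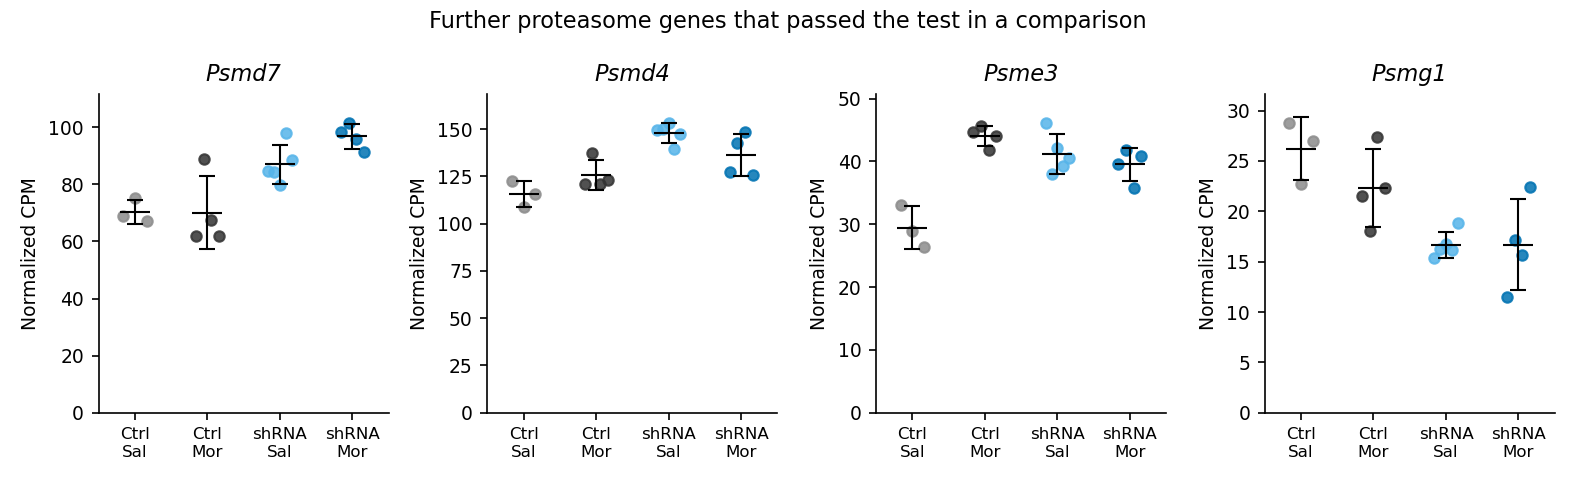
Normalized CPM of Psmd7, Psmd4, Psme3 and Psmg1 with 1 point per mouse and the group mean with its SD, by virus (Ctrl or Kdm7a-shRNA) and treatment (Sal for saline, Mor for morphine). Psme3 is lowest in the 3 Ctrl + Saline mice, Psmd7 and Psmd4 lie higher and Psmg1 lower in the Kdm7a-shRNA + Saline mice than in the Ctrl + Saline mice.

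The assembly factors guide subunits into the rings and the base and leave the finished particle. Of these, Psmg1 (PAC1), a chaperone of the alpha ring, fell between the viruses under saline. It was at 28.8, 22.7 and 27.0 in Ctrl + Saline mice, 21.6, 18.0, 27.4 and 22.4 in Ctrl + Morphine mice, 15.4, 16.2, 16.7, 16.2 and 18.8 in Kdm7a-shRNA + Saline mice, and 11.5, 17.1, 15.6 and 22.4 in Kdm7a-shRNA + Morphine mice. The saline groups did not overlap (-0.65, SE 0.18, fold 0.638, adjusted p = 0.016), while the morphine groups did because of Kdm7a-shRNA + Morphine mouse 4 (-0.42, SE 0.17, adjusted p = 0.14). The call was lost without Ctrl + Saline mouse 3 (-0.65, adjusted p = 0.060). Its partner Psmg2 (PAC2) differed by -0.04 (SE 0.11) under saline, Psmg3 by -0.10 (SE 0.12) and Psmg4 by 0.33 (SE 0.16, adjusted p = 0.14). The 19S chaperones Psmd5, Psmd9 and Psmd10 did not pass in any comparison.

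Genes that do not overlap between groups numbered 4 above and 6 below between the viruses under saline, beside 11.1% and 12.7% of all tested genes, and 5 above and 2 below under morphine, beside 6.37% and 7.51%. Between Kdm7a-shRNA + Saline and Kdm7a-shRNA + Morphine only the alpha subunit Psma6 did not overlap, among the 48 genes, with its morphine mice above, beside 0.951% of all genes above and 0.988% below. With a fold change of at least 1.5 added to the adjusted p, as the study's methods do, Psme1 and Psmg1 remained under saline and none under morphine, beside 16.7% and 7.69% of all genes.

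The genes around the proteasome were read from 3 lists. Of all tested genes, 9.69% were higher and 10.6% lower between the viruses under saline, which is 20.3% in either direction. Under morphine 9.26% of all tested genes passed. Of the 14162 known genes tested, 11.5% were higher and 4.58% lower under saline, and 4.51% and 1.91% under morphine. Of 18 tested subunits and factors outside the naming rule, 3 were higher with the Kdm7a-shRNA virus under saline and none lower, namely the ubiquitin receptor Adrm1 (Rpn13, 0.50, SE 0.14), the proteasome-bound thioredoxin Txnl1 (0.58, SE 0.17) and Fbxo7 (0.48, SE 0.15), which binds PI31. Each lost the call without Ctrl + Saline mouse 2 (adjusted p = 0.10, 0.13 and 0.089), Adrm1 and Fbxo7 also without mouse 3 of that group (0.062 and 0.10), and Fbxo7 without 4 further single mice (0.053 to 0.072). All 3 were also lost with library size alone (0.061, 0.066 and 0.091). They were lost as well with only the groups compared (0.056, 0.051 and 0.063) and among known genes alone (0.051, 0.057 and 0.071). Txnl1 was lost too with the replicate block (0.081). None passed in the other comparisons, and the median of the list was 0.006 under saline and -0.036 under morphine.

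Of 15 tested genes of the NRF1 pathway and the ubiquitin supply, 6 were higher and 1 lower under saline. The shares of all tested genes there were 9.69% and 10.6%, and those of the known genes 11.5% and 4.58%. Under morphine 2 of the 15 were higher and 1 lower, beside 3.93% and 5.34% of all tested genes and 4.51% and 1.91% of the known genes. Nfe2l1, which encodes NRF1, rose from a mean of 222 to 308 normalized CPM under saline (0.47, SE 0.12, adjusted p = 0.012). Rps27a (0.45), which encodes ubiquitin fused to a ribosomal protein, the conjugating enzyme Ube2d3 (0.80, SE 0.16) and the stress factor Nfe2l2 (1.07) rose as well. Uba1, the main ubiquitin-activating enzyme, fell by 0.58 under saline (SE 0.097, adjusted p = 0.000985) and by 0.36 under morphine (SE 0.096, adjusted p = 0.025). Nfe2l2 (1.13) also rose under morphine. Under saline the calls of Rps27a, Ube2d3 and Uba1 held whichever mouse of those groups was left out, whereas Nfe2l1 was lost without Ctrl + Saline mouse 3 (0.34, adjusted p = 0.10). Nfe2l2 was lost on leaving out any 1 of the 3 mice of that group or Kdm7a-shRNA + Saline mouse 3 (0.053 to 0.087). Under morphine Uba1 and Nfe2l2 were each lost without Ctrl + Morphine mouse 3 or 4 or Kdm7a-shRNA + Morphine mouse 3, Uba1 also without 3 further single mice and Nfe2l2 without 1, with adjusted p of 0.054 to 0.12. Nfe2l2 was also lost there with only the groups compared (0.061) and among known genes alone (0.050). Rps27a passed under morphine with RLE size factors (0.34, adjusted p = 0.049) and by DESeq2 (0.34, 0.023).

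Of 18 tested genes of interferon signalling and antigen presentation, 5 were higher and none lower under saline, beside 9.69% and 10.6% of all tested genes. Among known genes these shares were 11.5% and 4.58%. The list median was 0.81 beside 0.015 for all tested genes and 0.098 for the known genes. The 5 were the peptide-loading factor Tapbp (1.26, SE 0.35), the class I heavy chain H2-D1 (1.45, SE 0.49), the transcription factor Irf8 (1.81, SE 0.49), the trimming peptidase Erap1 (0.99, SE 0.30) and the receptor chain Ifngr1 (0.80, SE 0.25). All 5 lost the call without Ctrl + Saline mouse 2 (adjusted p = 0.054 to 0.16) or mouse 3 (0.087 to 0.17), and Erap1, Ifngr1 and H2-D1 also without 3 or 4 further single mice (0.051 to 0.096). H2-D1 and Ifngr1 were also lost with library size alone (0.056 and 0.055) and among known genes alone (0.072 and 0.061), and H2-D1 with at least 10 counts in every mouse (0.058). Tap1, the transporter that shares a promoter region with Psmb9, differed by 0.50 (adjusted p = 0.50) and Irf1 by 0.65 (adjusted p = 0.26). Under morphine none of the 18 passed, beside 9.26% of all tested genes, and the median was 0.38. Irf8 is also expressed by microglia, whose markers were higher in the same mice, and the part of microglia in this list was not tested.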

How the data were processed

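Complementary DNA from the mPFC of 16 mice was amplified by PCR and sequenced on a Nanopore device. Per the labels and the study's methods, the authors kept reads of at least 500 bases with a mean quality of at least 7, removed ribosomal RNA, selected full-length reads, aligned them with minimap2 to mm10 and deposited a count per gene, which is not normalized. The authors also deposited CPM, which equalled the count over the library total to within rounding and was not used further. The aligner's version and the strand setting are not given in the sources used here.

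The tests were run on the deposited counts with edgeR 4.0.16 in R 4.3.3. Genes were kept by filterByExpr (18826 genes), scaled by TMM, and fitted in 1 quasi-likelihood model with a coefficient for each of the 4 groups and all 16 mice. The Benjamini-Hochberg adjustment ran over all tested genes, and an adjusted p under 0.05 was a call. The study's notes name edgeR 3.8.6. The standard error of a log2 fold change was its size over the root of the F statistic. The script was tested on simulated data.

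Levels per kb are normalized CPM over the length of the longest coding transcript of GENCODE vM21, in which all 50 symbols were found. Promoters came from RefSeq (GRCm38.p6), with an entry for 42 of the 50 genes. The named genes were the catalytic subunits, the activators, the inhibitor, Psmg1 to Psmg4, the called members, the members with the highest and the lowest mean level in each role, and, outside the family, Kdm7a, Nfe2l1 and up to 6 called genes per list. Other genes named for their level, their lack of overlap or their part in a list, such as Psma4, Psmc1, Psmd14 and Tap1, were chosen after their values were seen. The members and lists were chosen with earlier results of these data known, and the motifs of the interferon response element and the gamma-activated site were added after the values were seen.

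Totals of 6596991 to 12418112 reads per mouse gave the immunoproteasome subunits Psmb8 and Psmb9 74 to 738 reads, so that the spread between mice exceeded counting error. Replicates of a group differed by more than sampling noise in all 25 pairs. Alternatives were another scaling, filter, set of samples and tool, a replicate block, the fold threshold of 1.5 and leaving out each mouse. DESeq2 1.42.0 was the other tool. Fitting only known genes was an alternative chosen after seeing the data. Some items are not reported here.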

Additional observations from a re-analysis of the deposited data

Results flagged for a closer look

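Of 87 groups of 4 or 5 mice tested over 29 named genes of the set (Psmc3ip among them), 4 held a mouse far from the rest by Dixon's criterion, which chance gives in about 1 of 20 groups. Psmb7 was at 152.2 normalized CPM in Kdm7a-shRNA + Morphine mouse 1, above the other 3 mice of its group. Psmd4 was at 137.3 in Ctrl + Morphine mouse 2, above its group. Psmc5 was at 1531 in Ctrl + Morphine mouse 1 and at 1639 in Kdm7a-shRNA + Saline mouse 5, both below their groups.

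For Psme3 the difference between the viruses had opposite signs under saline and under morphine, and only the saline difference passed. Its interaction was -0.64 on the log2 scale and did not pass by edgeR's test. The gene was flagged by its lack of overlap in opposite directions, and the share of all genes with this pattern was not computed. Both the saline difference and the interaction use the same 3 Ctrl + Saline mice, which were the lowest of all for Psme3. All Kdm7a-shRNA mice were above the Ctrl mice under saline and all were below them under morphine. The interaction had an adjusted p of 0.10 by edgeR's quasi-likelihood test and of 0.0076 by DESeq2, and over fits that left out 1 mouse it lay between 0.048 and 0.36.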

How the results depend on the processing

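No result changed its direction as a call. The count of 4 proteasome genes between the viruses under saline became 8 with library size alone as scaling and 2 with the fold of at least 1.5 added, and it ranged from 0 (without Ctrl + Saline mouse 3) to 4 when single mice were left out. The count of 1 under morphine became 0 with library size alone, 0 with only the groups compared, 0 with the fold added and 3 with DESeq2, and it ranged from 0 (without Ctrl + Morphine mouse 3 or 4 or Kdm7a-shRNA + Morphine mouse 3) to 4 (without Kdm7a-shRNA + Morphine mouse 4). The count of 0 between Ctrl + Saline and Ctrl + Morphine became 1 with DESeq2 and ranged from 0 to 2 over left-out mice, and that of the interaction became 1 with DESeq2 and ranged from 0 to 1. Library size alone moved the median of all genes by -0.13 under saline and -0.11 under morphine. The causes of these changes were not tested. With at least 10 counts in every mouse and with DESeq2 the saline count was 5, Psmb7 being added, and among known genes alone it was 4, with Psmb7 in place of Psmd4. With the replicate number as a block the counts were 4 under saline, 1 under morphine and 0 in the other comparisons. The numbers did not pair the mice, since deviations from the group means correlated with a median of 0.0139 in 21 pairs with the same number and -0.00725 in 74 pairs with different numbers. Psma8 and Psmb11 had too few reads to be tested at this depth.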
